A study of Mus musculus with 11 samples.

Results

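Brn3a, the product of Pou4f1, is a POU-homeodomain transcription factor of sensory neurons, and the comparison set 2 microarrays of Brn3a knockout trigeminal ganglia against 2 of wild-type ganglia. The 4 arrays were all those of the U74Av2 type, titled knockout or wildtype, among the 11 arrays of the series. Each held RNA from a pool of about 10 to 12 ganglia of 1 genotype, taken from mouse embryos at embryonic day 13.5. The 2 heterozygote U74Av2 arrays, made the same way, entered the statistical model to help estimate the error. The labels number the arrays of each genotype 1 and 2, and the arrays numbered 1 differed strongly from those numbered 2. Knockout was therefore compared with wild-type within each number. The labels name no single animals, strain, allele or removed part of the gene, so p-values measure only the spread between these pooled arrays.

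The trigeminal ganglion holds the neurons that carry touch, temperature and pain from the face, together with their satellite glia and Schwann cells. Brn3a binds DNA through its POU domain and homeodomain, and it comes on in sensory neurons as they leave the cell cycle. Mice without it are known to form trigeminal neurons whose axons and subtype markers develop abnormally. The stage was chosen, per the design text, because axon growth is already disturbed while most of the neuronal death is still to come.

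The 250 bases before the annotated start site are shown for 4 of the genes at the ends of the distribution of differences, 2 with large rises and 2 with the largest falls. The pair of rises, which are not the largest rise but the next in order, was chosen because each holds a motif that was searched. The sequences are those of RefSeq on GRCm38.p6, written 5′ to 3′ on the strand of the gene. Each window ends at the base before the gene's annotated transcription start. Somatostatin (Sst) lies on the minus strand at chr16:23890845-23891094, Tfap2b on the plus strand at chr1:19211804-19212053, Rgs10 on the minus strand at chr7:128418173-128418422 and advillin (Avil) on the plus strand at chr10:127000459-127000708. Capitals mark matches, on either strand, to ATTAAT, a core of the sequence that Brn3 factors are known to bind, to the cyclic AMP response element TGACGTCA and to the TATA box TATAAA.
Sst: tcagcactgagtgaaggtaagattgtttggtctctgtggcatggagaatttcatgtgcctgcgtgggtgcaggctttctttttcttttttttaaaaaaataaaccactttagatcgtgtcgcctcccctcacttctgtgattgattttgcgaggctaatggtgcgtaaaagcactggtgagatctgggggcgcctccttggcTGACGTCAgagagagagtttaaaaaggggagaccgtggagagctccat
Tfap2b: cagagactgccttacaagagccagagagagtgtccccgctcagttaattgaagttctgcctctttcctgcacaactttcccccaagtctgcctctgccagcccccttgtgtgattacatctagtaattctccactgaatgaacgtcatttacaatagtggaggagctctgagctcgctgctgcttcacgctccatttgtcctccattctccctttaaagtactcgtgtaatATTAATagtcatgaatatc
Rgs10: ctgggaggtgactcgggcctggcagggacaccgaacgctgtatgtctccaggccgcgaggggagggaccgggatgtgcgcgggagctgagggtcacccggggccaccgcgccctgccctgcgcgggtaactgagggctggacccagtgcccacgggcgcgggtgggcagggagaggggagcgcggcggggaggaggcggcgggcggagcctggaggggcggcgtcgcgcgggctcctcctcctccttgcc
Avil: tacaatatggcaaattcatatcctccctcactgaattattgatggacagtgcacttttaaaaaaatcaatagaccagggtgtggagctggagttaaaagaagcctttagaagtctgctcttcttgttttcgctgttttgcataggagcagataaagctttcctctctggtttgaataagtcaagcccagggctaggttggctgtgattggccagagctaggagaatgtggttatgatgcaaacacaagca
The Sst window held TGACGTCA starting 48 bases before the start site, and the Tfap2b window held ATTAAT starting 19 bases before it. These matches did not overlap another motif. The windows of Rgs10 and Avil held none of the 3 in these 250 bases. Of 27 genes called higher in knockout with a promoter in the table, 1 held ATTAAT, and of 64 called lower 1 did, against 1.97% of 4576 tested genes and 4.52% of all 27025 promoters. TGACGTCA was found in 2 of 27 and 2 of 64, against 2.71% of the tested genes and 1.62% of all promoters. TATAAA was found in 4 of 27 and 5 of 64, against 7.41% and 13% (TATAAA can share bases with ATTAAT). A match describes the letters of the window and not a bound site.

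Before the results, 3 facts about the arrays bear on all of them. The numbers differed in 1820 of 7453 probe sets (limma, adjusted p under 0.05), and the manufacturer's 18S ribosomal RNA probe sets had geometric mean signals of 5170 to 12800 on the 3 arrays numbered 1 but 511 to 974 on those numbered 2. The same 18S signal was 2.48-fold higher in knockout than in wild-type within number 1 and 1.9-fold higher within number 2. The spike-in control probe sets, which do not measure the tissue, were higher in knockout too. Their geometric mean signals were 7740 in knockout and 2460 in wild-type within number 1, and 2820 and 1730 within number 2. The part of any of these in the gene differences was not tested. The ratio of the 3′ to the 5′ probe sets of actin, which rises as RNA degrades, was 1.31 in knockout and 1.08 in wild-type within number 1, and 1.16 and 1.14 within number 2. The same ratio of Gapdh was 1.07 and 0.935 within number 1, and 0.963 and 0.872 within number 2. Both ratios were thus higher in knockout within each number, and their part in the gene differences was not tested. Some sensory ganglion markers were bright in all 4 arrays, while others, such as Avil, were much lower in knockout (given below). Isl1, a homeodomain factor of sensory neurons, gave signals of 2296 to 3000, and Tlx3, another, gave 1122 to 2815. Pou4f1 had 0 probe sets on U74Av2. On the separate U74Bv2 arrays its probe set gave 550 and 904 in knockout and 3313 in wild-type. The labels do not say whether those arrays carried the same RNA pools, or which stretch of Pou4f1 the probe set covers.

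Values below are MAS5 signals on a linear scale, with the array numbered 1 first, and each difference is knockout minus wild-type of log2(signal + 50), averaged over both numbers. Adding 50 understates the change of dim probe sets. Called probe sets whose names mark a relaxed design, which may also detect similar transcripts, are marked as relaxed. Of 7453 probe sets tested, 130 were called at a limma adjusted p under 0.05 (1.74%), 43 of them higher in knockout (0.577%) and 87 lower (1.17%). The 130 covered 114 named genes, 38 higher and 76 lower, and 10 probe sets with no gene name. All 130 differed in the same direction within both numbers, as did 60.8% of all probe sets tested. In 128 of them no knockout array overlapped a wild-type array, against 28.5% of all probe sets. The 2 that overlapped measured neuropilin 1 (Nrp1), an axon guidance receptor with a further called probe set that did not overlap, and the proteasome subunit Psmb5. A ganglion pool with fewer cells of a type and one with less RNA per cell cannot be told apart in these data. With 2 arrays against 2 an exact permutation test of 1 gene cannot go below p = 0.33, so each call rests on the error that limma shares across probe sets.

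Across all 7453 probe sets the differences centred on 0.02 with an SD of 0.38, and their 5th and 95th percentiles were -0.56 and 0.52. The lowest was -3.30 and the highest 4.31. The middle of the distribution was therefore narrow and both tails were long. Differences past 1 in both numbers in the same direction were found in 79 probe sets (1.06%), 27 higher (0.362%) and 52 lower (0.698%), while 5 (0.0671%) passed 1 in opposite directions. Past 2 there were 19 (0.255%), 9 higher (0.121%) and 10 lower (0.134%), with 0 in opposite directions. Past 0.5 there were 412 (5.53%), 186 higher (2.50%) and 226 lower (3.03%), with 76 in opposite directions (1.02%). The number of probe sets past 1 was 295 (3.96%) within number 1 alone and 224 (3.01%) within number 2 alone. Past 2 these shares were 0.496% and 0.403%, and past 0.5 they were 18.6% and 15.4%. A difference of 1 seen in a single pair of arrays was thus found in the other pair for a minority of probe sets.

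The Pearson correlation across probe sets between the difference within number 1 and that within number 2 was 0.45, and Spearman's rho was 0.33. Among the 7323 probe sets not called, r was 0.28. The probe sets share arrays and are not independent replicates, so no p-value is given. Among the 43 called higher r was 0.91, and among the 87 called lower 0.75, which the requirement of a small error partly sets. The agreement was closer in bright probe sets. Among the 1491 dimmest of the tested probe sets, with mean signals of 125 to 227, r was 0.31 and the median standard error of a difference 0.25. Among the 1491 brightest, from 1256 to 47109, r was 0.59 and the median standard error 0.14. Falls numbered 8 among those dimmest and 28 among the brightest, and rises 8 and 9.

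**Figure D1:**
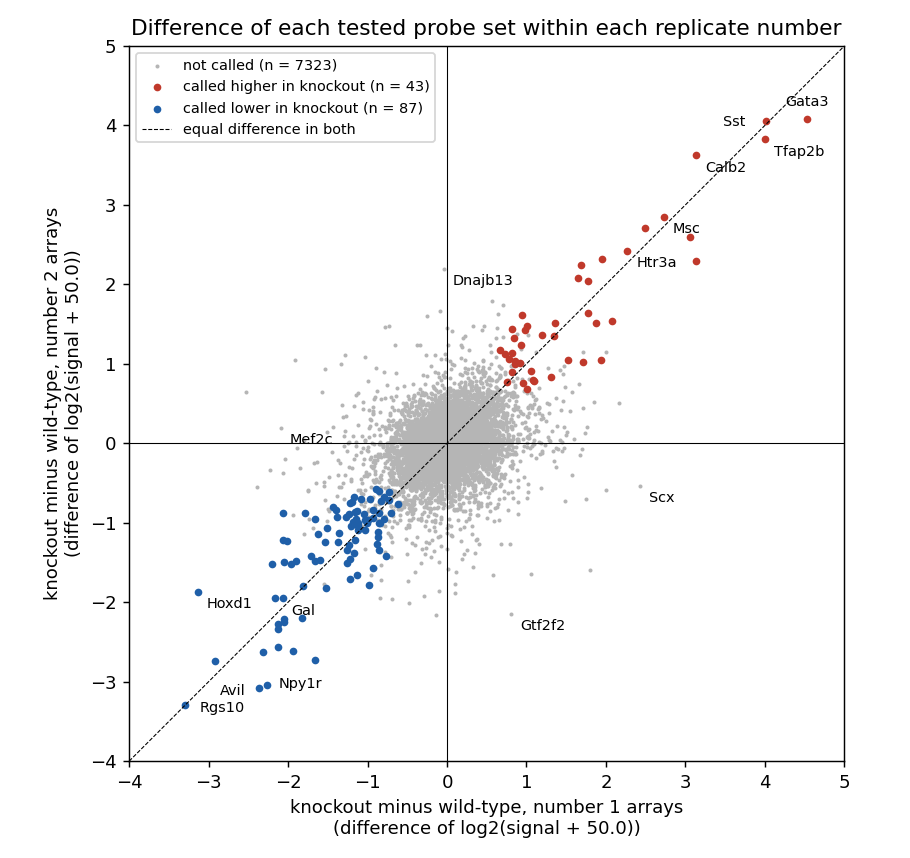
Knockout minus wild-type in log2(signal + 50) for each of 7453 tested probe sets, within number 1 (x axis) and within number 2 (y axis), with the 43 called higher in red, the 87 called lower in blue and the rest in grey. Called probe sets lie along the dashed line of equal difference, from Rgs10 at -3.30 and -3.29 to Gata3 at 4.53 and 4.08, while Scx and Gtf2f2 lie far from it.

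Some large differences belonged to 1 number only. The tendon and mesenchyme factor Scx gave 2010 in knockout and 332 in wild-type within number 1, but 1014 and 1495 within number 2, differences of 2.43 and -0.54. The transcription factor Mef2c was at 12.7 against 217 within number 1 and at 204 against 173 within number 2 (-2.09 and 0.19). Dnajb13, a co-chaperone family member, was at 558 against 574 within number 1 and at 1159 against 215 within number 2 (-0.04 and 2.19). The general transcription factor subunit Gtf2f2 was at 488 against 257 and then at 167 against 909 (0.81 and -2.14). These 4 were the most extreme named genes whose sign differed between numbers, 1 for each number and direction. None of them was called, and their standard errors of 0.45 to 0.57 were larger than those of all 30 leading genes described below.

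Transcription factor genes among the 15 largest rises are given first. The zinc-finger factor Gata3 gave signals of 2524 and 2236 in knockout and 61.1 and 85.2 in wild-type. Both knockout arrays were far above both wild-type arrays. The difference was 4.31 ± 0.21 (SE; limma adjusted p = 2.31e-04), 19.8-fold on the same scale. The AP-2 family factor Tfap2b gave 1115 and 1037 against 22.8 and 26.7 (3.91 ± 0.30, limma adjusted p = 0.00167). Musculin (Msc), a bHLH repressor, gave 1578 and 1685 against 195 and 191, so that the arrays of each genotype nearly coincided (2.79 ± 0.15). Neurod4, a bHLH factor of early neurogenesis, gave 522 and 800 against 98.2 and 120 (2.14 ± 0.36, limma adjusted p = 0.0400). Zbtb16, a zinc-finger repressor also called PLZF (relaxed), gave 448 and 656 against 104 and 98.7 (1.97 ± 0.25). The homeobox factor Six2 gave 815 and 604 against 204 and 109 (1.90 ± 0.35, limma adjusted p = 0.0491), with groups that did not overlap but the widest error of the leading rises next to Neurod4.

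Of 31 sensory neuron transcription factors tested, 8 rose (25.8%, against 0.671% of all 5663 named genes) and 3 fell (9.68%, against 1.24%). The list was drawn up with earlier results of these data known, so its counts are a description. Besides Gata3 and Tfap2b the risers were the homeobox gene Shox2 (3361 and 3742 against 1295 and 1434, difference 1.35, relaxed), the transcriptional cofactor Eya2 (1.20), the LIM-only proteins Lmo4 (1.08) and Lmo1 (0.98), the homeobox cofactor Pbx3 (0.93) and the zinc-finger factor Insm1 (0.86). The fallers were homeobox or runt factors. Hmx1 gave 102 and 94.3 against 612 and 682 (-2.23 ± 0.18, limma adjusted p = 0.00204). Runx1, a runt-domain factor of nociceptors, gave 126 and 149 against 742 and 720 (-2.06 ± 0.16, limma adjusted p = 0.00167). Meis2 gave 59.6 and 113 against 379 and 415 (-1.74). The other 20 did not pass the test on the probe set counted, and lay between -1.13 (Maf) and 0.83 (Lhx1). Among them Tlx3 was at 0.60 (limma adjusted p = 0.0777), Isl1 at -0.17, Sox11 at 0.24, Klf7 at -0.24 and Ebf1 at -0.54. The LIM-only gene Lmo2, also on the endothelial list, was at -0.59 on the probe set counted but fell on a dimmer one (327 and 286 against 775 and 556, -0.99, limma adjusted p = 0.0317). Cbfb, the partner subunit of runt factors, fell as well, from 9312 and 8538 to 4353 and 5244 (-0.89, relaxed). The median of the list was 0.15, beside 0.01 for all named genes, and it ranged from -0.06 to 0.36 over the alternative settings.

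In the neurogenic bHLH and Notch list 3 of 24 genes rose (12.5%, against 0.671% of all named genes) and 1 fell (4.17%, against 1.24%). Neurod1, which acts in neuronal differentiation, gave 1005 and 1256 against 500 and 378 (1.28 ± 0.19). Msc and Neurod4 were the others. Id1, an inhibitor of bHLH factors, fell from 1160 and 1259 to 366 and 502 (-1.39 ± 0.14, limma adjusted p = 0.00514). Its relatives Id2, Id3 and Id4 did not pass, with differences of -0.46, -0.33 and -0.27. The Notch receptors Notch1, Notch2 and Notch3 did not pass either (0.26, 0.52 and -0.01), nor did the target Hes1 (0.16). Of 12 Hox genes tested only Hoxd1 was called, as a fall (8.33%, against 1.24% of all named genes). It gave 37.8 and 193 in knockout against 723 and 837 (-2.50 ± 0.32, limma adjusted p = 0.0151), lower in both knockout arrays but by unequal amounts, and its second, relaxed probe set fell too (-2.34). The remaining 11 Hox genes lay between -0.29 and 0.53. Basonuclin (Bnc1), a zinc-finger protein outside these lists, gave 80.2 and 88.5 against 450 and 796 (-2.28 ± 0.21).

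**Figure D2:**
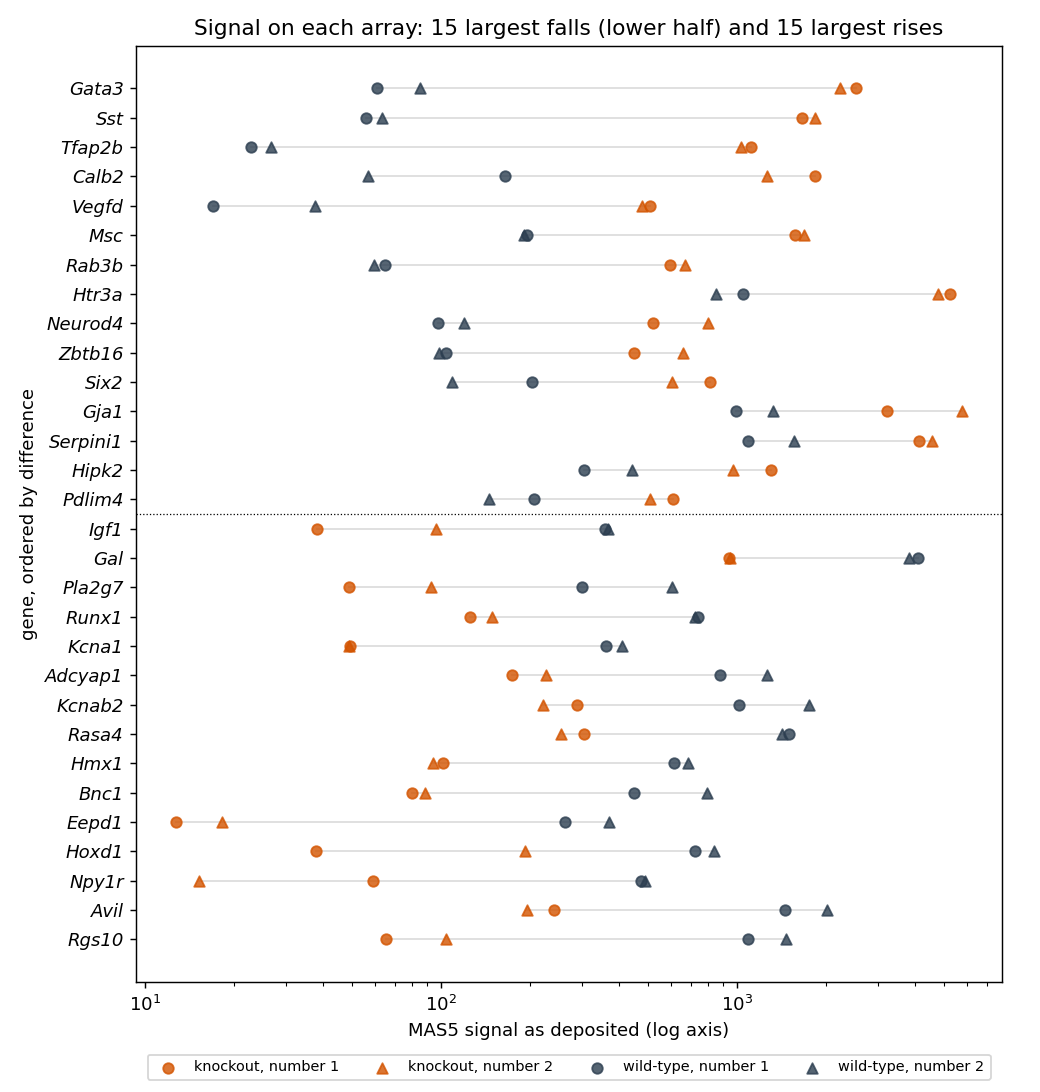
MAS5 signal, on a log axis, of the 15 named genes with the largest rises (above the dotted line) and the 15 with the largest falls (below it), for each knockout array (orange) and wild-type array (dark), with circles for number 1 and triangles for number 2. Only genes whose knockout and wild-type arrays did not overlap were eligible, so the separation in every row is set by the choice. For Gata3 the knockout arrays at 2524 and 2236 stand far above the wild-type arrays at 61.1 and 85.2.

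Among 19 neuropeptide genes 2 rose (10.5%, against 0.671% of all named genes) and 2 fell (10.5%, against 1.24%). Sst, an inhibitory peptide, gave 1662 and 1842 in knockout and 55.7 and 63.4 in wild-type. Its differences within the numbers were close, at 4.02 and 4.06 (4.04 ± 0.19, limma adjusted p = 2.31e-04). The natriuretic peptide Nppb gave 377 and 515 against 163 and 154 (1.24). Adcyap1, the precursor of PACAP, gave 174 and 226 against 880 and 1261 (-2.15 ± 0.18, limma adjusted p = 0.00205). Galanin (Gal) gave 938 and 952 against 4088 and 3816 (-2.01 ± 0.13, limma adjusted p = 7.95e-04), the smallest standard error of the 15 largest falls. A second, relaxed Gal probe set was not called (0.16, with signals of 207 to 275). The substance P precursor Tac1 (0.64) and dynorphin (Pdyn, 0.78) did not pass.

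Peptide and transmitter receptors changed in both directions too. Htr3a, a subunit of the serotonin-gated channel, gave 5244 and 4788 against 1049 and 854 (2.34 ± 0.14). Sstr2, a receptor for somatostatin, rose by 0.95 on a relaxed probe set (limma adjusted p = 0.0430), while its other probe sets, at 0.68 and 0.91, were not called. The neuropeptide Y receptor Npy1r gave 59.2 and 15.3 against 474 and 489 (-2.65 ± 0.42, limma adjusted p = 0.0318), with a wide error and dim, unequal knockout arrays. These were the 3 called of 31 receptors tested, 2 higher (6.45%, against 0.671% of all named genes) and 1 lower (3.23%, against 1.24%). The list included the glutamate receptor subunit Gria2 (-0.39), the serotonin receptor Htr1d (-0.54) and the galanin receptor Galr1 (-0.22), which did not pass.

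Calcium-binding proteins had 2 rises (10.5%, against 0.671% of all named genes) and 1 fall (5.26%, against 1.24%) among 19 genes. Calretinin (Calb2), a marker of neuronal subsets, gave 1838 and 1265 against 165 and 56.8 (3.38 ± 0.32, limma adjusted p = 0.00369). Its difference was 3.14 within number 1 and 3.62 within number 2, with unequal wild-type arrays. Nell2, a secreted protein of neurons, gave 930 and 736 against 542 and 309 (0.93, limma adjusted p = 0.0498). Annexin A2 (Anxa2) fell from 9444 and 9051 to 4164 and 5639 (-0.92). The related calbindin (Calb1, 0.58) and hippocalcin (Hpca, 0.66) did not pass.

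Of 28 voltage-gated channel genes 4 fell and 0 rose (14.3% lower, against 1.24% of all named genes). In both numbers 15 were lower (53.6%, against 29.4%) and 5 were higher (17.9%, against 32.4%). The potassium channel Kcna1 gave 49.3 and 48.8 against 363 and 409 (-2.14 ± 0.21, limma adjusted p = 0.00426). Kcnab2, a cytoplasmic subunit that associates with such channels, gave 289 and 221 against 1019 and 1750 (-2.19 ± 0.24), and its second, relaxed probe set fell by 1.69. The calcium-activated channel Kcnn1 (-1.33) and the calcium channel subunit Cacna2d1 (-1.01, 182 and 157 against 417 and 365) fell with them. Sodium channels were lower without passing, with Scn7a at -1.47 (limma adjusted p = 0.0688), Scn9a at -1.07 and Scn10a at -0.78, the last from 707 and 749 against 932 and 1755. The median of the list was -0.12, and -0.28 to -0.06 over the alternatives.

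Synaptic vesicle genes had 3 falls (9.38%, against 1.24% of all named genes) and 1 rise (3.12%, against 0.671%) among 32. The calcium sensors Syt1 (-1.29) and Syt2 (469 and 571 against 1276 and 1313, -1.24 ± 0.14, limma adjusted p = 0.00763) and complexin 1 (Cplx1, -0.99), which acts with them at release, fell. Rab3b, a vesicle GTPase, gave 593 and 666 against 64.7 and 59.4 (2.60 ± 0.23, limma adjusted p = 0.00272). Its relatives did not pass (Rab3a 0.29, Rab3d -0.55), and the core fusion proteins Snap25 (0.28), Vamp2 (-0.31) and Stx1a (-0.47) did not either. γ-Synuclein (Sncg) fell by 1.12 on one probe set, and the difference of a relaxed probe set, -0.69, missed the threshold. The median was -0.16, and -0.23 to -0.08 over the alternatives.

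Rgs10, which ends signalling by G proteins, gave 65.5 and 104 in knockout and 1088 and 1462 in wild-type, with differences of -3.30 and -3.29 (-3.30 ± 0.15, limma adjusted p = 2.31e-04), and a second, relaxed probe set fell by 2.83. Rgs7 fell too (-1.06), and these were the 2 calls among 34 RGS and G-protein genes (5.88% lower, against 1.24% of all named genes). Rasa4, a GTPase-activating protein that restrains Ras, gave 305 and 255 against 1502 and 1422 (-2.20 ± 0.16). The receptor adaptor Shc1 fell by 1.80, and the ERK phosphatase Dusp6 rose from 636 and 682 to 1258 and 1668 (1.08). Among 23 neurotrophin, GDNF and cytokine receptors only 1 was called, as a fall (4.35%, against 1.24%). It was the receptor kinase Kit (263 and 304 against 702 and 847, -1.30 ± 0.17). The artemin receptor Gfra3 was at -0.67 (limma adjusted p = 0.0792). Of 30 growth factors 1 rose (3.33%, against 0.671% of all named genes) and 2 fell (6.67%, against 1.24%). The lymphangiogenic factor Vegfd rose, from 17.0 and 37.6 to 508 and 478 (2.82 ± 0.29, limma adjusted p = 0.00514), and Fgf18 (-1.19) and Fgf13 (-0.94) fell. Igf1 fell on a relaxed probe set (38.3 and 96.1 against 358 and 368, -1.86 ± 0.24) but not on its brighter one (0.08), which the list count uses. Another Igf1 probe set, on the U74Bv2 arrays, gave 1504 and 1465 in knockout against 3968 in the single wild-type array (-1.39).

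Of 53 actin regulators 0 rose and 1 fell (1.89%, against 1.24% of all named genes). Advillin (Avil), an actin-binding protein of sensory neurons, gave 242 and 195 against 1455 and 2022 (-2.72 ± 0.20, limma adjusted p = 0.00142) and was that call. Of 35 axon guidance genes 1 rose (2.86%, against 0.671%) and 3 fell (8.57%, against 1.24%). The secreted protein Olfm1 (-1.67, relaxed), the receptor Nrp1 (-0.73) and the semaphorin Sema4f (-0.69) fell, and the netrin receptor Unc5c rose (0.98). The adhesion molecule Alcam fell by 1.09 and was the single call of 25 in its list. Of 50 microtubule, neurofilament and motor genes 1 rose (2.00%, against 0.671%), Tuba1c, and 2 fell (4%, against 1.24%). Neurofilament heavy chain (Nefh, 365 and 381 against 777 and 794, -0.98) and peripherin (Prph, 4015 and 6027 against 7326 and 11130, -0.87, relaxed) fell, whereas the light chain Nefl (-0.53) and the medium chain Nefm (0.26) did not pass. Among 32 pan-neuronal and sensory neuron markers 4 fell (12.5%, against 1.24%) and 1 rose (3.12%, against 0.671%). The falls were Avil, Syt1, Cplx1 and Prph, and the rise was the RNA-binding protein Celf4 (1.28, relaxed). The other 27 did not pass on the probe set counted, among them the general neuronal markers Gap43 (-0.06), Stmn2 (0.01) and Tubb3 (0.36).

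Other genes among the leading rises and falls belonged to no list. The gap junction protein Gja1 gave 3210 and 5790 against 994 and 1327 (1.86 ± 0.15) on a relaxed probe set, while a dimmer probe set was not called (0.89). Neuroserpin (Serpini1), an inhibitor of serine proteases, gave 4134 and 4559 against 1088 and 1564 (1.70 ± 0.14). The nuclear kinase Hipk2 gave 1308 and 969 against 304 and 442 (1.49 ± 0.22), and the LIM-domain protein Pdlim4 gave 611 and 508 against 207 and 146 (1.44 ± 0.20). In each of these the groups were apart, as the choice of leading genes required. Eepd1, an endonuclease family protein, gave 12.7 and 18.2 against 262 and 370 (-2.47 ± 0.24). Pla2g7, the platelet-activating factor acetylhydrolase, gave 48.8 and 92.7 against 300.0 and 604 (-2.01 ± 0.21). Both had knockout signals at the dim end, where the difference is understated. Smaller falls in bright probe sets included the immunophilin Fkbp1b, from 9309 and 5809 to 3041 and 2070 (-1.53 ± 0.14), and the microsomal enzyme Mgst3, from 2725 and 3644 to 798 and 1332 (-1.56 ± 0.13), 2 genes chosen after their values were seen. The smallest called changes were a rise of 0.77 in the axon growth protein Nav2 and a fall of 0.67 in the ubiquitin ligase Rnf145.

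**Figure D3:**
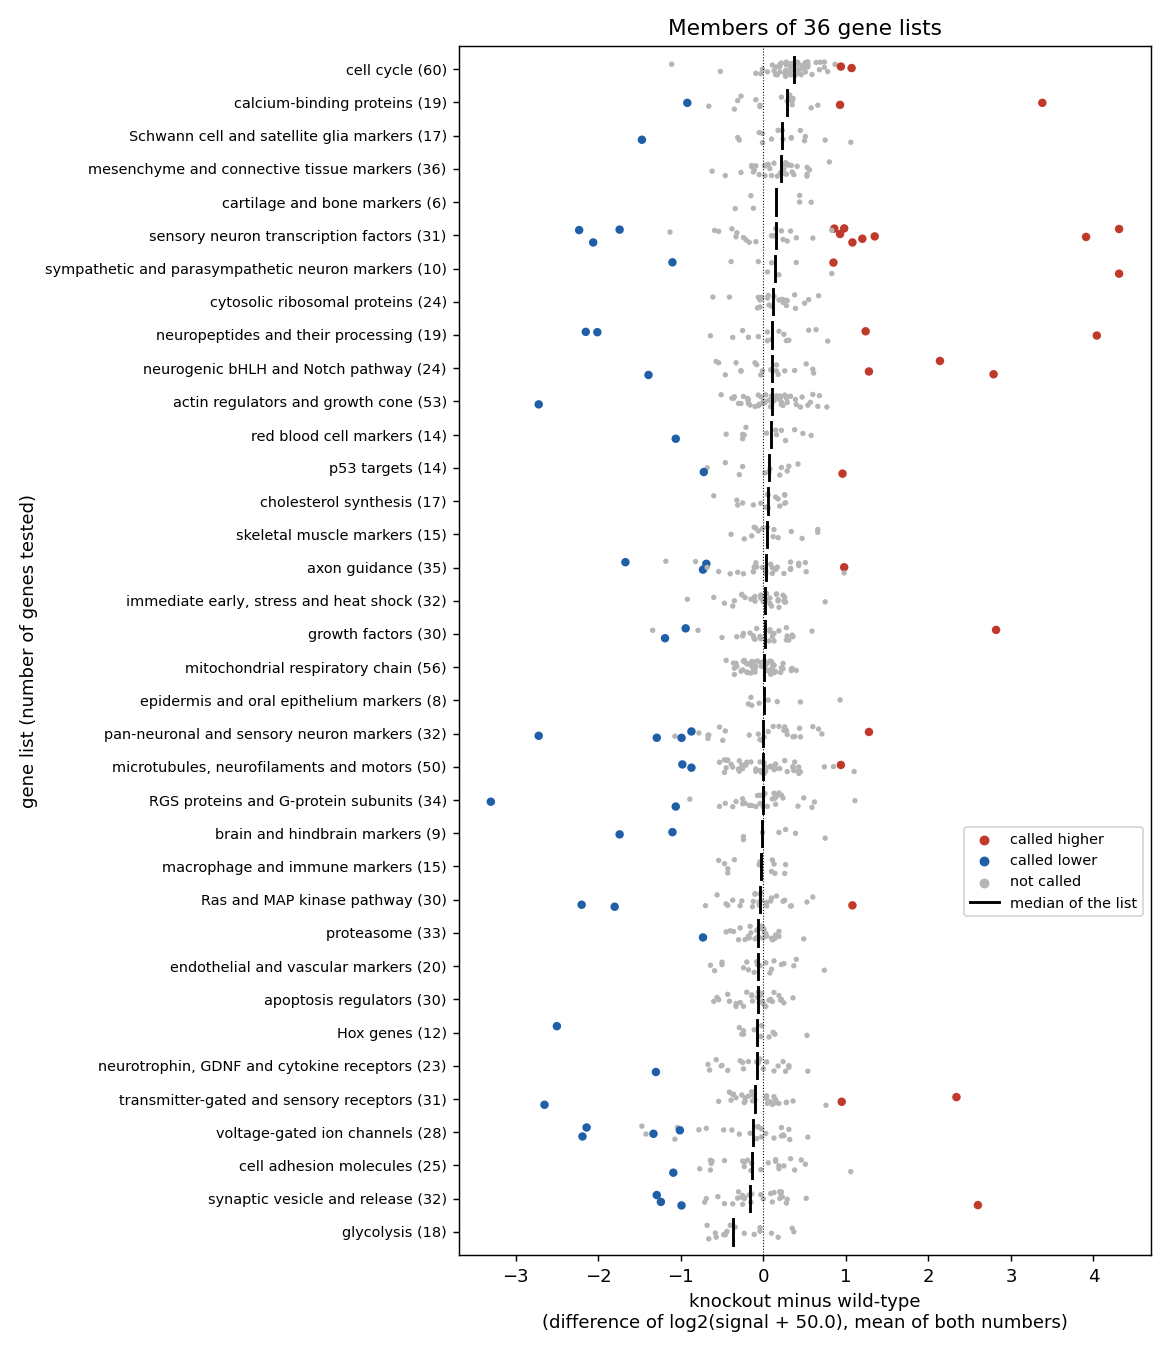
Knockout minus wild-type in log2(signal + 50), averaged over both numbers, for each tested member of 36 gene lists (1 probe set per gene, the brightest), with called members in red or blue, others in grey and a black bar at the list's median. The calls sit at the outer ends of the neuronal lists, while the cell cycle list is displaced as a whole to a median of 0.37 and the glycolysis list to -0.37.

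A pair of lists was displaced as a whole with few or no calls. In the cell cycle list 55 of 60 genes had positive differences and 50 were positive in both numbers (83.3%, against 32.4% of all named genes). The median was 0.37 (0.35 within number 1, 0.38 within number 2, and 0.28 to 0.44 over the alternatives), beside 0.01 for all named genes. In this list 2 genes rose (3.33%, against 0.671% of all named genes) and 0 fell. The chromatin methyltransferase Ezh2 rose from 540 and 555 to 1410 and 1031 (1.07), and cyclin D1 (Ccnd1), which starts the cycle, from 642 and 551 to 1418 and 996 (0.94), while its dimmer probe set was at 0.11 and not called. The other 58 did not pass, among them the replication helicase subunit Mcm5 (0.69), the ribonucleotide reductase subunit Rrm1 (0.87) and survivin (Birc5, 0.78). Dut, a nucleotide hydrolase, went the other way without passing (66.7 and 43.1 against 159 and 191). In the glycolysis list 14 of 18 genes had negative differences, against 2730 of all 5663 named genes. The median of the list was -0.37 (-0.40 to -0.20 over the alternatives), and 0 were called. Its brightest members were pyruvate kinase (Pkm) at -0.44, the aldolase Aldoa at -0.48 and hexokinase 1 (Hk1) at 0.37.

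Lists of survival and general cell function held few calls. Few were to be expected at the shares over all named genes, 0.671% higher and 1.24% lower. Of 30 apoptosis regulators 0 were called and their differences lay between -0.60 and 0.36, the anti-apoptotic genes Bcl2 and Mcl1 being at -0.20 and -0.01. At an unadjusted p under 0.05 the limma fit held 1076 probe sets in all, 14.4%, so an uncalled list is not shown to be unchanged. Of 14 p53 targets 1 rose and 1 fell (7.14% each). The stress protein Gadd45a rose (551 and 777 against 269 and 359, 0.96) and the kinase Plk2 fell (-0.72), while Mdm2 was at -0.68 (limma adjusted p = 0.0842). The lists of immediate early and stress genes (32 tested), mitochondrial respiratory chain genes (56), cholesterol synthesis genes (17) and cytosolic ribosomal proteins (24) held 0 calls. That of proteasome subunits (33) held 1 fall (3.03%), Psmb5. The mitochondrial list was the most compact of these, between -0.45 and 0.40. Psmb5 fell by 0.73 on a relaxed probe set, while its second probe set was at 0.63 without passing.

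The 10 brightest named genes all had positive differences in the signals as deposited, led by Tuba1a (1.10), Tuba1c (0.94), Stmn1 (0.74), Rpl41 (0.67) and Basp1 (0.66). Only the tubulin gene Tuba1c was called (relaxed). After quantile normalization between arrays 6 of the 10 were negative, Tuba1a was at -0.04, Rpl41 at -0.07 and Tuba1c at 0.14, no longer called. The differences of these genes thus depended on the scaling, and the 6 negative values, from -0.13 to -0.04, were close to 0. Quantile normalization called 120 probe sets, 37 higher and 83 lower, and 119 of these were among the 130.

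Of 17 Schwann cell and satellite glia markers 1 fell (5.88%, against 1.24% of all named genes) and 0 rose. The median difference was 0.23 (0.17 to 0.34 over the alternatives), and the summed signal was 31123 and 29643 in knockout and 24653 and 26635 in wild-type. The call was the lipid carrier Apoe (405 and 1086 against 1857 and 2029, -1.47). The defining factors Sox10 (0.23), Erbb3 (0.18) and Fabp7 (0.45) did not pass. Of 36 mesenchyme and connective tissue markers 0 were called, 27 were positive and the median was 0.22 (0.14 to 0.25). Their summed signal was 47495 and 41636 against 43187 and 36687, higher in knockout within each number, although the groups overlapped across numbers. Col3a1, a fibrillar collagen, came nearest (1372 and 1409 against 733 and 825, 0.80, limma adjusted p = 0.0635). Both lists moved in the direction of the cell cycle list, and their part in it was not tested.

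Endothelial (20 tested), macrophage (15), skeletal muscle (15), cartilage (6) and epidermal markers (8) held 0 calls on the probe sets counted, Lmo2 of the endothelial list having been called on another, with medians between -0.06 and 0.16. Of 14 red blood cell markers 1 fell (7.14%, against 1.24% of all named genes), Ank1, an ankyrin (-1.06, relaxed). A further Ank1 probe set at -0.62 was not called. The summed signal of the list was 71947 and 58712 in knockout and 58999 and 50316 in wild-type. It was higher in knockout within each number, although the groups overlapped across numbers. Of 9 brain markers Meis2 and tyrosine hydroxylase (Th) fell (22.2%, against 1.24%), and the summed signal was 4496 and 5879 against 6321 and 7793. Th, which makes catecholamines, gave 1391 and 1563 against 3078 and 3375 (-1.10 ± 0.12, limma adjusted p = 0.00797). Of 10 sympathetic neuron markers 2 rose (20%, against 0.671% of all named genes) and 1 fell (10%, against 1.24%). Gata3 and the monoamine oxidase Maoa (0.85) rose and Th fell. The remaining 7 did not pass, among them Gata2 (0.40), the noradrenaline transporter Slc6a2 (0.83) and the decarboxylase Ddc (0.19), and the summed signal, which includes Gata3, was 9275 and 8152 against 7580 and 7100. The part of brain or autonomic cells in these calls was not tested.

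In the median of the called probe sets the heterozygote arrays lay near the wild-type arrays. The median heterozygote minus wild-type difference was 0.12 over the 43 called higher and -0.10 over the 87 called lower, beside -0.01 over all tested. Gata3 gave 61.1 and 96.1 in heterozygotes, Sst 69.3 and 85, Rgs10 1016 and 1177 and Gal 3753 and 4093. Some called probe sets lay further from wild-type, with heterozygote differences of 0.78 for Vegfd, 0.60 for Calb2 and -0.70 for Ndfip2 (relaxed). These are values of the same arrays that set the error of the fit and the wild-type arrays are shared with the main contrast, so they are given as a description.

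A further probe set on the same arrays measured many genes. Of 923 genes with several tested probe sets 56.9% had differences of a single sign, with a median range of 0.24. Of the 22 that were called by at least 1 of several probe sets, 18 had a single sign and 6 had all probe sets called. The exceptions were Gal, Igf1, Psmb5 and Gtf3a, a transcription factor of 5S RNA genes whose probe sets were at -1.39 and 0.06. Among genes of a single sign, further probe sets that were not called stood at -0.33 for Syt2, -0.76 for Cbfb, 1.23 for Shox2, and 0.65 and 0.52 for Pbx3. On the U74Bv2 arrays, normalised separately and with 1 wild-type array, 23 of the called genes had a tested probe set. In 22 of them both knockout arrays lay beyond the wild-type array in the direction seen on U74Av2, and 57.5% of all 1121 genes tested on both types had the same direction. Gata3 gave 1043 and 1417 against 9.50 there (4.42), Tfap2b 7573 and 5119 against 351 (3.97) and Runx1 476 and 388 against 2372 (-2.33). The exception was Gtf3a (0.08), and Atp11a (-0.27) and Epb41l4b (-0.21) were smaller there than on U74Av2 (-1.09 and -0.92).

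**Figure D4:**
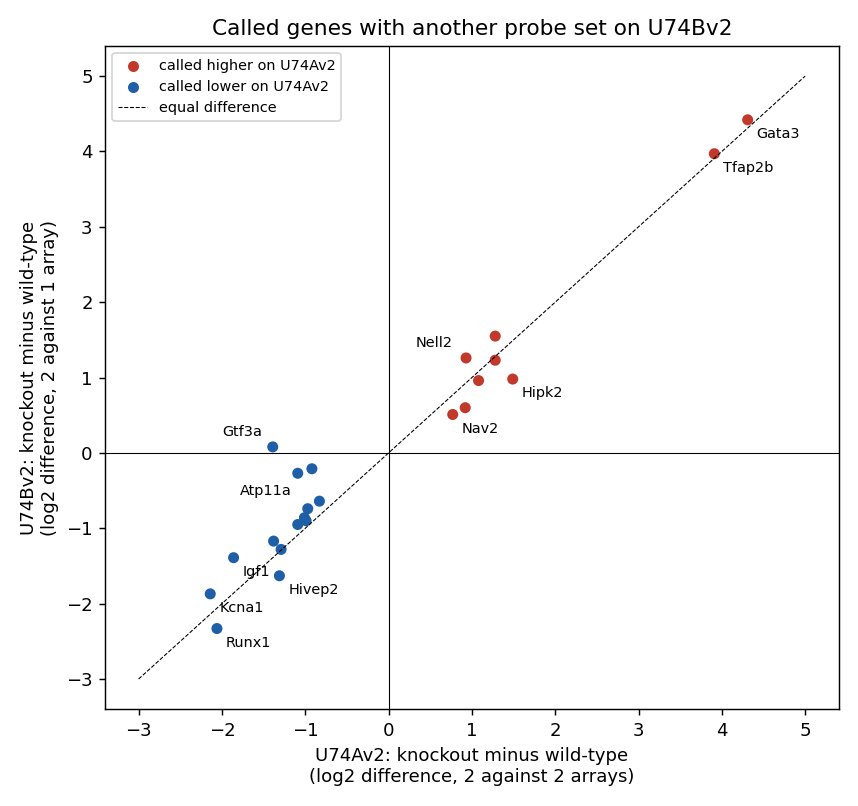
Log2 difference between knockout and wild-type for 23 genes called on U74Av2 (x axis, 2 against 2 arrays) and measured by another probe set on U74Bv2 (y axis, 2 against 1 array), in red where called higher and blue where called lower. The points follow the dashed line of equal difference, with Gtf3a at -1.39 and 0.08 the one gene on opposite sides of 0.

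The calls were spread over the genome. Every autosome and the X chromosome held at least 1 called gene among those with a tested probe set, from 0.513% of 195 genes on chromosome 19 to 3.61% of 305 on chromosome 8, where 2 rose and 9 fell. Pou4f1 lies on chromosome 14, where 5 of 187 tested genes fell (2.67%, against 1.24% of all named genes) and 0 rose (against 0.671%). Among the 30 tested genes nearest to Pou4f1, up to 20 on a side, 1 fell, the ubiquitin ligase adaptor Ndfip2 (217 and 321 against 494 and 674, with differences of -1.03 and -0.96 within the numbers; relaxed), and 0 rose. Their median difference was 0.05 and their highest 0.69, and few calls were to be expected among 30 genes at those shares.

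The replicate number decided how many genes were called. Without the number as a block the differences stayed as they were and 19 probe sets were called (0.255%), all of them among the 130. Of the 30 leading genes 16 were called without the block. Leaving out single arrays changed the count as well. It became 71 and 67 when knockout array 1 or 2 was dropped, and 24 and 27 when wild-type array 1 or 2 was dropped. Of the 30 leading genes 13 were called under each alternative in which they were tested: Gata3, Sst, Tfap2b, Calb2, Msc, Rab3b, Htr3a, Rgs10, Avil, Hmx1, Rasa4, Runx1 and Gal, with limma adjusted p of at most 0.0461. Tfap2b and Rab3b, and Vegfd among the others, were tested in only 4 of the 6 fits with an array left out. Without either knockout array they fell below the brightness filter, so those 2 omissions could not be run for them. Gja1, Serpini1 and Adcyap1 were lost without the block alone, with limma adjusted p of 0.186, 0.0729 and 0.111. Without wild-type array 1 Vegfd (adjusted p = 0.0603 in the limma fit) was lost, and without wild-type array 2 Bnc1 and Kcnab2. Each of these 2 omissions lost Hoxd1, Eepd1, Kcna1, Pla2g7 and Igf1, and also Neurod4, Zbtb16, Six2, Pdlim4 and Npy1r, which were lost without knockout array 2 too. Hipk2 was lost without knockout array 1 or wild-type array 1, and Zbtb16, Six2 and Pdlim4 were lost without knockout array 1 too. The lowest and highest differences of these genes over the alternatives kept their sign, for example -3.55 and -1.53 for Npy1r and 1.35 and 2.36 for Six2.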

How the data were processed

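Each array gave 1 MAS5 signal per probe set, deposited by the authors as a linear intensity (MAS5 per the submitters' processing notes, version and target unstated there). U74Av2 arrays had 2% trimmed means of 500.26 to 500.29 and were not rescaled. Detection calls were left aside. Precision is limited by the number of arrays. Of 12488 probe sets 66 controls were left out. The platform annotation gave 1 symbol for 10855, several for 396 and none for 1237, and 10839 matched a RefSeq gene table (GRCm38.p6) by Entrez identifier, with 0 symbols changed. Probe sets ending in _f_at, _g_at, _i_at, _r_at or _s_at have relaxed designs or can match several transcripts.

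The deposited signals were turned into log2(signal + 50), with 50 being 0.1 of the trimmed mean, and probe sets at or below the 40th percentile of mean log2 value were left out, which left 7453. R 4.3.3 with limma 3.58.1 fitted genotype with the replicate number as a block to the 6 U74Av2 arrays, with eBayes and an intensity trend. The block left 2 residual degrees of freedom and eBayes added 5.28. The numbers were taken to pair the arrays because deviations of same-numbered arrays correlated at 0.533 to 0.619 in each pair of genotypes. Calls needed a two-sided Benjamini-Hochberg adjusted p under 0.05 over all probe sets tested. Tested on simulated data for this contrast (7453 probe sets, 5 runs), the blocked fit found 78.2% of 335 changes seeded at a log2 size of 1, 91.6% of 335 at 2 and 86.7% of 330 at 3. False calls averaged 14.6 a run. The simulated noise was drawn separately for each probe set, without shifts shared across an array. These figures therefore do not show how the fit behaves where such shifts are present. Gene lists use the brightest probe set of a gene and carry no set test. The members and lists were chosen with earlier results of these data known.

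The text names, by rule, the 15 largest rises and falls and the 5 smallest of each among called, non-overlapping probe sets with 1 symbol, called list members up to 6 or else the 3 brightest, the 10 brightest genes, and the 3 most extreme genes of opposite sign in each number and direction. Other named genes were chosen after their values were seen. Alternatives changed the block, the arrays, the pseudocount, the filter, the trend, the normalization and the probe set designs. Plots used Python 3.11.15 with matplotlib 3.10.9.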

Additional observations from a re-analysis of the deposited data

How the results depend on the processing

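The 130 calls (43 higher, 87 lower) became 19 (8 and 11) without the replicate block, 51 (15 and 36) with no filter on dim probe sets and 53 (16 and 37) with no intensity trend. Without the filter the correlation between the differences of the numbers was 0.31. Leaving out 1 array gave 24 to 154 calls, 9 to 55 higher and 15 to 99 lower, with 1 residual degree of freedom and, where an arm had 1 array, its spread taken from the others. With the other settings the count lay between 119 and 155. Calls that could still be tested had the same sign in each alternative. Leaving out 1 wild-type array moved the share of higher calls to 37.5% and 44.4%, from 33.1%, and leaving out 1 knockout array to 25.4% and 22.4%. The replicate block was the main setting, since the numbers pair the arrays, and the fit without it printed above is the unpaired one. Dim signals limit the leading genes: 6 probe sets called higher had a wild-type mean signal under 100, and 15 called lower had a knockout mean under 100, so their differences depend on the pseudocount.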

Other observations

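Of the 10 called probe sets with no gene name in the annotation used here, 5 were higher and 5 lower in knockout. The largest rise among them gave 835 and 1000 in knockout against 51.0 and 163 in wild-type, with 441 and 203 in heterozygotes. Its difference over both numbers was 2.72, on a relaxed probe set (limma adjusted p = 0.0293), and would rank among the leading rises. The largest fall gave 2282 and 3210 against 9683 and 7560 (-1.64, limma adjusted p = 0.0244). Both were chosen after their values were seen.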
